A study of Mus musculus with 12 samples.

Results

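The Notch pathway genes described here are 9 mouse genes, Dtx1, Dtx4, Notch1, Notch2, Notch3, Jag1, Dll1, Rbpj and Hes1, among 30101 gene names on the array. The set was chosen by measured values, because Dtx1 had one of the largest falls from naive cells in these same arrays, and the other 8 genes were listed with it by pathway. The differences of Dtx1 between groups are therefore given as a description, without a test. The data were expression profiles of CD4+ T cells in experimental autoimmune encephalomyelitis (EAE), an autoimmune inflammation of the central nervous system (CNS), on 12 single-colour arrays in 4 groups of 3. The immunised group held CD4+ T cells taken at peak disease from the CNS of C57BL/6 mice given the MOG35-55 peptide of myelin oligodendrocyte glycoprotein (MOG). For the transferred group, B6.2d2 Th17 cells made in culture were injected into lymphopenic Rag1-/- mice, whose own T and B cells do not mature, and were recovered from the CNS at peak disease. The cultured group held the in vitro Th17 cells, and the naive group CD4+ T cells from B6.2d2 spleen. B6.2d2 mice carry a transgenic T cell receptor for MOG in all 3 groups made from them, whereas the immunised mice are labelled wild type, so strain, host, receptor and way of induction cannot be told apart between the CNS groups. Ages, sorting and purity were not given in the sources used here.

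Notch receptors are bound by Delta-like and Jagged ligands on neighbouring cells and are then cut by ADAM proteases and the gamma-secretase complex. The freed intracellular part moves to the nucleus, joins the DNA-binding protein RBPJ and switches on targets such as Hes and Hey repressors. Deltex proteins are ubiquitin ligases that bind the intracellular part of Notch, and Dtx1 is also known as a Notch target and as a gene linked to unresponsiveness in T cells.

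A level below is the log2 of a probe's processed signal minus the log2 of that array's 75th percentile, so that a probe at the percentile has a level of 0. Levels of different genes come from different probes and were not compared with each other. The scanner software marked 57.0% to 64.8% of probes per array as well above background, and the dimmest such signals lay at levels of −5.95 to −5.17. Of the 9 genes, 6 passed the filter, which asked for a signal well above background on each of the 3 arrays of some group: Dtx1, Dtx4, Notch1, Notch2, Jag1 and Rbpj. Notch3 reached that mark on 2 of 12 arrays, and Dll1 and Hes1 on 0 of 12. All 13 T cell core markers were measured on every array. In bulk RNA, fewer cells of a type and less RNA per cell cannot be told apart.

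The windows before the annotated start of Dtx1 and Jag1 are shown because Dtx1 was below and Jag1 above naive cells in both CNS groups without overlap. They are RefSeq sequences of build GRCm38.p6, in lower case, minus strand, and stop where the gene begins. The Dtx1 window lies at chr5:120711868-120711919 and the Jag1 window at chr2:137116521-137116770.
Dtx1: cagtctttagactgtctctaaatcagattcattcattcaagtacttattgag
Jag1: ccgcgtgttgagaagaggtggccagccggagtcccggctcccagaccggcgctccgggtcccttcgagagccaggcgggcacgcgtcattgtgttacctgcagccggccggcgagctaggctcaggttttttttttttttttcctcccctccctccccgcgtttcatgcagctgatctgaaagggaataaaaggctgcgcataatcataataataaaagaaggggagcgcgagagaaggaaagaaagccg
Of the bases shown, 32.7% are G or C in the Dtx1 window and 57.2% in the Jag1 window. The RBPJ core motif TGGGAA was searched on both strands in windows of 300 bases around the starts of the 7 genes of the set that had one. It was found in 2 of their 9 windows, both of Rbpj, and in 25.6% of all 32851 RefSeq windows. The longer form GTGGGAA, which contains the core, was in 0 of the 9 windows and in 6.38% of all windows. The Dtx1 and Jag1 windows held neither, and a match or its absence in these letters is a description of the sequence only.

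Dtx1 was high in naive cells, intermediate in immunised CNS cells, low in transferred CNS cells and, on average, lowest in cultured cells. Its probe lies at chr5:121130278-121130337 on the minus strand of mm9 and was well above background on all 12 arrays. Its levels were 0.94, 1.34 and 0.34 in immunised cells, −2.62, −2.06 and −3.49 in transferred cells, −5.14, −4.22 and −3.40 in cultured cells, and 4.41, 4.17 and 4.34 in naive cells. The naive arrays were the highest and the immunised arrays the next, with no overlap with any other group, whereas transferred and cultured arrays overlapped. The means were 0.87 ± 0.51 in immunised, −2.72 ± 0.72 in transferred, −4.26 ± 0.87 in cultured and 4.31 ± 0.12 in naive cells (log2 level, SD, n = 3 each). The log2 difference of cultured from naive cells was −8.56, the 2nd lowest of the 18631 genes tested. That of transferred from naive cells was −7.03, the 39th lowest, and that of immunised from naive cells −3.43, the 250th lowest. These differences chose the gene and carry no test. With another background correction (normexp), which lifts dim signals, the log2 differences were −7.24 for cultured and −6.37 for transferred against naive cells.

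**Figure D1:**
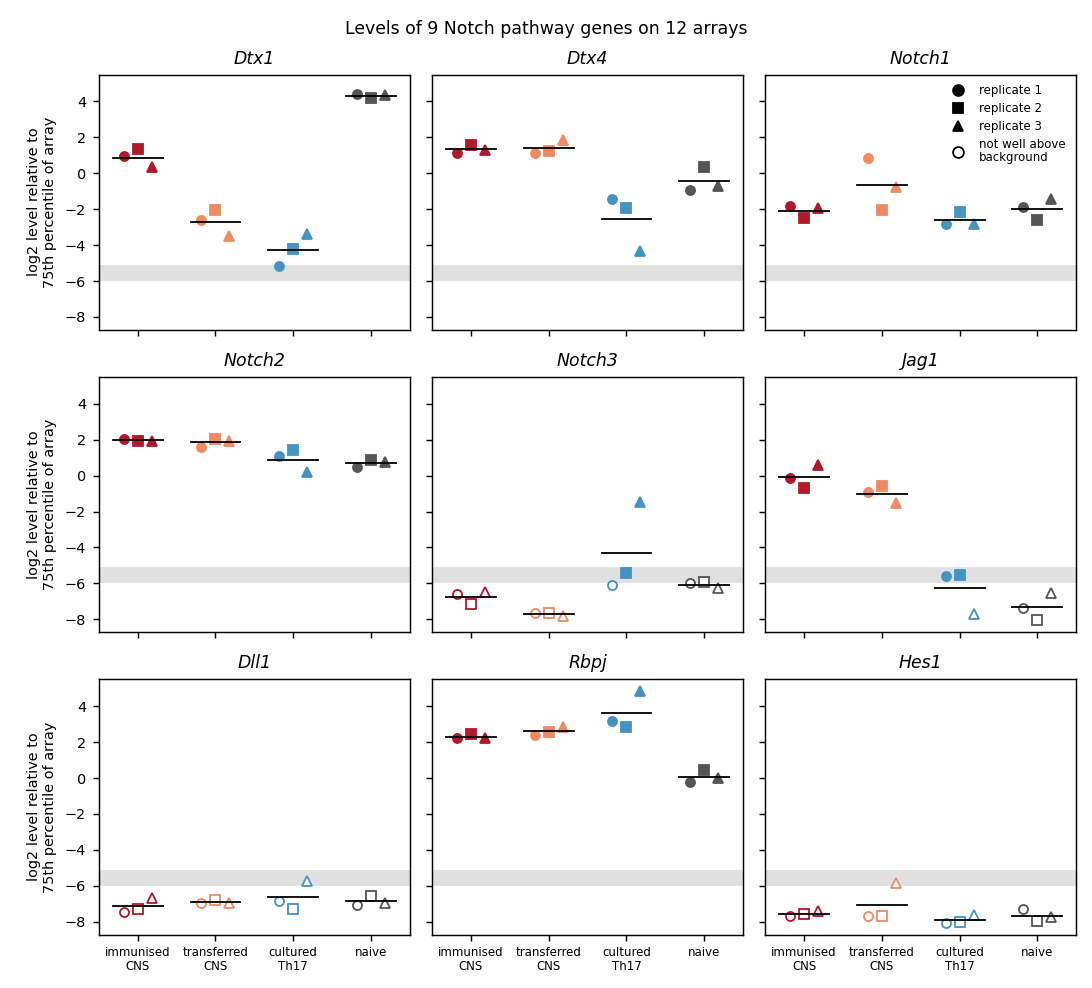
Log2 level (vertical axis, relative to each array's 75th percentile) of the 9 genes in the 4 groups, with 1 symbol per array, black lines at the group means, and open symbols where the probe was not well above background. The grey band spans the lowest levels well above background, −5.95 to −5.17. Dtx1 separates all groups except transferred from cultured, and Dll1 and Hes1 have open symbols throughout.

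Between the CNS groups, all 3 immunised arrays had higher Dtx1 levels than all 3 transferred arrays. The log2 difference was 3.60, or 12.1-fold, and it has no test, since both groups' levels also enter the falls for which the gene was chosen. On the 3 slides, each of which carried 1 array of every group, it was 3.57, 3.40 and 3.83. Across 21 other settings, which included leaving out each array, the difference ranged from 3.05 to 3.93. The other 5 measured genes had adjusted p-values from 0.213 to 0.974 between the CNS groups (limma), where 1.85% of all genes were called higher in immunised cells and 1.37% lower. Other markers differed beside it: the summed level of 8 neutrophil markers was 455 to 580 in immunised and 5.76 to 176 in transferred arrays, and that of 6 CD8 and NK cell markers 25.0 to 29.8 in immunised and 7.47 to 18.7 in transferred arrays (sums of linear levels, on which the 75th-percentile probe counts 1). S100a9 was the largest part of the neutrophil sum in immunised arrays, with log2 levels of 7.87 to 8.03, against 0.52 to 6.74 in transferred arrays. Of the neutrophil markers, Mpo and Elane overlapped between the CNS groups, and the others were higher in immunised arrays without overlap. Nkg7 was the largest part of the CD8 and NK sum in immunised arrays, with log2 levels of 4.47 to 4.77, against 2.81 to 3.97 in transferred arrays. Cd8a and Cd8b1 were also higher in immunised arrays without overlap, whereas Klrb1c and Klrd1 overlapped. Ncr1 was well above background on 2 transferred and 0 immunised arrays. B cell markers summed to 1.41 to 1.54 in immunised and 0.441 to 0.896 in transferred arrays, with Ms4a1, Pax5 and Blk among the markers that were well above background on no transferred array. The 6 naive T cell markers summed to 68.4 to 125 in immunised and 84.3 to 161 in transferred arrays, which overlapped. The part of these cells in the Dtx1 difference was not tested. Group also fixed the position of an array on its slide, so position and group cannot be told apart in any comparison.

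**Figure D2:**
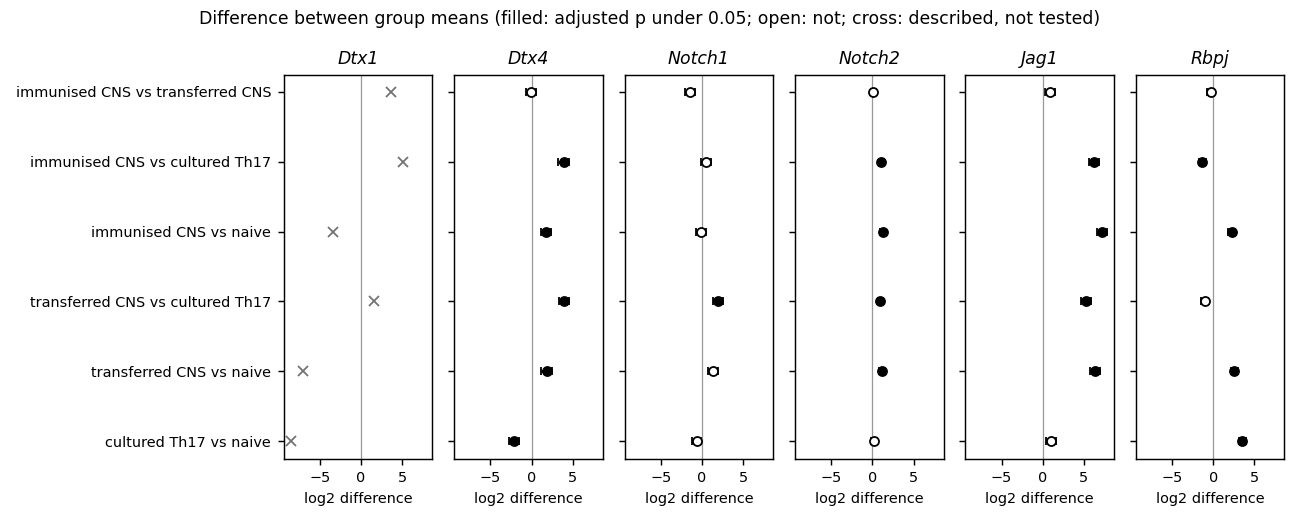
Log2 difference between group means (horizontal axis) of the 6 genes that passed the filter, with the comparisons from top to bottom and bars of 1 standard error. Filled points are called at an adjusted p under 0.05, open points are not, and crosses are the Dtx1 differences, given without a test. In the top line Dtx1 lies at 3.60 and the points of the other genes are open. The Jag1 differences from naive cells are fitted values, since naive cells were below background and only a bound holds there.

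Dtx4, the other deltex member, was at like levels in both CNS groups, lower in naive and lowest in cultured cells. Its levels were 1.14, 1.55 and 1.32 in immunised, 1.11, 1.23 and 1.84 in transferred, −1.41, −1.95 and −4.31 in cultured, and −0.91, 0.33 and −0.73 in naive cells. Every CNS array was above every cultured and naive array, and the cultured arrays lay below all naive arrays. Compared with cultured cells, transferred cells were 3.95 ± 0.63 higher (log2 difference ± standard error, SE, adjusted p = 0.00121) and immunised cells 3.90 ± 0.63 higher (adjusted p = 0.00115). The rises over naive cells were smaller, at 1.83 in transferred (adjusted p = 0.0345) and 1.77 in immunised cells (adjusted p = 0.0387), and cultured minus naive cells came to −2.12 (adjusted p = 0.0216). Immunised minus transferred cells came to −0.06 ± 0.63, which was not called (adjusted p = 0.974). The rises over naive cells sat close to the threshold. The transferred call was lost without naive replicate 1 or 3 or any transferred replicate, and with no filter on dim probes (adjusted p 0.0542 to 0.106), and the immunised call without naive replicate 1 or 3, transferred replicate 2 or any immunised replicate, and with no filter (0.0518 to 0.116). Without naive replicate 2 the difference of cultured cells was −1.74 (adjusted p = 0.0759), and with only the 6 arrays compared it was not called (adjusted p = 0.0914). Dtx1 and Dtx4 thus had different orders of groups, and over the 12 arrays their levels had a Pearson r of 0.22 and a Spearman rho of 0.17, with the 4 groups shared by all points.

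Of the receptors, Notch2 was higher in both CNS groups than in naive and cultured cells, Notch1 was called in 1 comparison, and Notch3 was near or below background. Notch2 had levels of 2.02, 1.91 and 1.96 in immunised, 1.60, 2.04 and 1.92 in transferred, 1.08, 1.41 and 0.18 in cultured, and 0.51, 0.90 and 0.74 in naive cells. The CNS arrays lay above all others, while cultured and naive arrays overlapped. The log2 differences over naive cells were 1.25 ± 0.28 in immunised (adjusted p = 0.00409) and 1.14 ± 0.28 in transferred cells (adjusted p = 0.00661), each about as large on every slide (1.01 to 1.52 and 1.09 to 1.18). Over cultured cells they were 1.08 (adjusted p = 0.0145) in immunised and 0.97 (adjusted p = 0.0257) in transferred cells. The last of these was not called without transferred replicate 2 or 3 (adjusted p = 0.0837 and 0.0739), and with only the 6 arrays compared neither was (adjusted p = 0.0601 in immunised and 0.106 in transferred cells). Cultured minus naive cells came to 0.17 (adjusted p = 0.65), and to 0.53 without cultured replicate 3 (adjusted p = 0.0499). A second, dimmer Notch2 probe had means of −4.16 in immunised, −4.60 in transferred, −5.11 in cultured and −4.66 in naive cells and was well above background on 10 of 12 arrays. With both probes averaged, the Notch2 difference of transferred from naive cells was 0.60 (adjusted p = 0.115) and that from cultured cells 0.74 (adjusted p = 0.0858).

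Notch1, a receptor needed for T cell development in the thymus, had levels of −1.85, −2.51 and −1.91 in immunised, 0.84, −2.04 and −0.74 in transferred, −2.85, −2.13 and −2.80 in cultured, and −1.90, −2.60 and −1.43 in naive cells. Transferred cells spread widely, with replicate 2 at the level of the other groups. They were 1.95 ± 0.60 above cultured cells (adjusted p = 0.0336), with differences of 3.69, 0.09 and 2.06 on the slides. No other Notch1 comparison was called (adjusted p 0.0918 to 0.891), although the one with naive cells was 2.03 without transferred replicate 2 (adjusted p = 0.00979). The call against cultured cells was lost without cultured replicate 1 or 3 or transferred replicate 1 or 3, with differences of 1.20 to 1.99 and adjusted p-values of 0.0766 to 0.0888, and also with no filter (adjusted p = 0.0556) or only the 6 arrays compared (adjusted p = 0.104). A dimmer probe for Notch1 ran the other way, at −4.79 in transferred and −4.46 in cultured cells, and with both probes averaged the difference was 0.81 (adjusted p = 0.0975). Notch3 was well above background only on cultured replicates 2 and 3, at −5.42 and −1.44. Its other 10 levels lay between −7.80 and −5.93, so the cultured mean rested on replicate 3.

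Among the ligands, Jag1 was higher in both CNS groups than in naive and cultured cells, and Dll1 was not measured above background. Jag1 had levels of −0.12, −0.71 and 0.60 in immunised, −0.89, −0.59 and −1.55 in transferred, −5.57, −5.53 and −7.70 in cultured, and −7.36, −8.01 and −6.53 in naive cells. All 6 CNS arrays were well above background, against 2 of 3 cultured and 0 of 3 naive arrays. Against naive cells a difference is therefore a bound, taken from the lowest signal well above background: Jag1 was at least 45.0-fold higher in immunised (adjusted p = 8.35e-06) and at least 23.6-fold higher in transferred cells (adjusted p = 2.14e-05). Jag1 passed the filter through the CNS groups alone, and these p-values rest on fitted naive values below background. Transferred cells were 5.26 ± 0.60 above cultured cells on the log2 scale (adjusted p = 0.000153) and immunised cells 6.19 ± 0.60 (adjusted p = 4.84e-05), with cultured replicate 3 below background. These sizes and the bounds depended on the background correction: with normexp the log2 differences were 3.29 in immunised and 2.49 in transferred against cultured cells, and 3.39 in immunised and 2.59 in transferred against naive cells. Immunised minus transferred cells came to 0.93 ± 0.60 (adjusted p = 0.419). Cultured minus naive cells came to 1.04 (adjusted p = 0.2), and to 1.75 without cultured replicate 3 (adjusted p = 0.017), both sides then being near or below background. Dll1, a Delta-like ligand, stayed between −7.47 and −5.75 on its brighter probe, and none of its 12 values was well above background on either probe.

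The 14 macrophage and monocyte markers, as a sum, were higher in both CNS groups than in cultured and naive cells, as Jag1, Dtx4 and Notch2 were. All 14 were well above background on every array of both CNS groups, against 10 of 14 on all cultured and 5 of 14 on all naive arrays. Their summed level was 409 to 940 in immunised, 574 to 876 in transferred, 9.70 to 24.1 in cultured and 2.19 to 2.73 in naive arrays. C1qa and C1qc were on no cultured array, and Adgre1, C1qc, Fcgr1, Ms4a7 and Mrc1 were among those on no naive array. Markers of dendritic cells summed to 4.23 to 5.48 in immunised, 5.46 to 12.9 in transferred, 0.619 to 0.961 in cultured and 0.0916 to 0.237 in naive arrays, with 4 of 5 on every CNS array and Xcr1 on none. Itgax was the largest part of the CNS sums, at log2 levels of 1.87 to 2.29 in immunised and 2.33 to 3.66 in transferred arrays. Itgax and Clec9a were higher in both CNS groups than in cultured and naive arrays without overlap. Flt3 and Zbtb46 were so in immunised arrays only, and in transferred arrays they overlapped cultured and naive arrays. The 8 microglia markers were on every CNS array and summed to 117 to 146 in immunised, 130 to 146 in transferred, 82.2 to 107.5 in cultured and 82.5 to 126 in naive arrays, with P2ry12 on no cultured and Sall1 on no cultured or naive array. The T cell core summed to 382 to 583 in immunised, 268 to 388 in transferred, 575 to 619 in cultured and 562 to 649 in naive arrays. Of the 14 macrophage and monocyte markers, only Ccr2 was not higher in both CNS groups than in cultured cells. Its levels were 2.94 to 3.58 in immunised, 1.27 to 2.31 in transferred and 2.47 to 4.29 in cultured arrays, where it was the largest part of the sum. The immunised and transferred arrays overlapped in the summed macrophage markers. The part of non-T cells in the CNS rises of Jag1, Dtx4 and Notch2 was not tested.

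**Figure D3:**
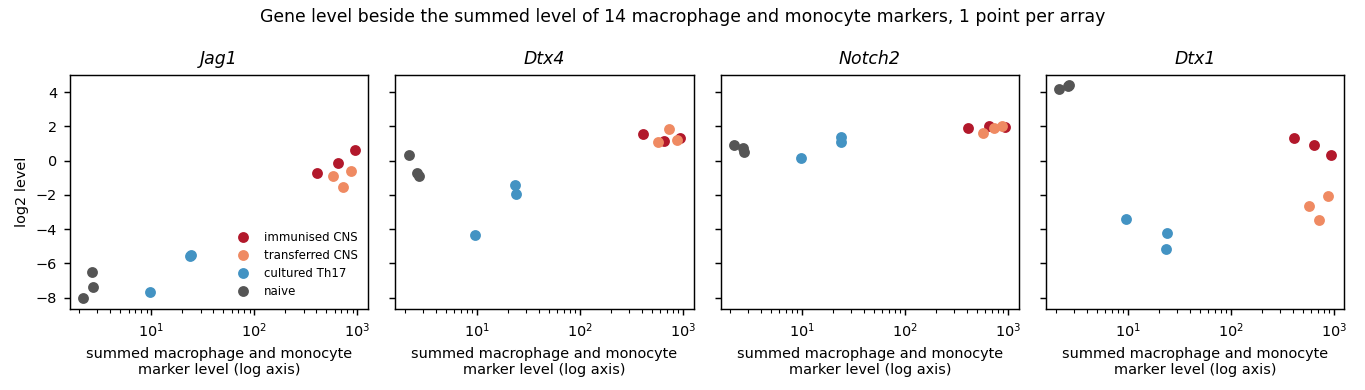
Log2 level of 4 genes (vertical axis) against the summed level of 14 macrophage and monocyte markers (horizontal log axis), 1 point per array, coloured by group. The 6 CNS arrays, at sums of 409 to 940, hold the highest levels of Jag1, Dtx4 and Notch2, and the last panel shows Dtx1 on the same arrays.

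Rbpj, which encodes the DNA-binding partner of cleaved Notch, was higher in every activated group than in naive cells. Its levels were 2.25, 2.48 and 2.20 in immunised, 2.42, 2.56 and 2.84 in transferred, 3.18, 2.86 and 4.85 in cultured, and −0.23, 0.43 and 0.01 in naive cells. The naive arrays were the lowest without overlap, and cultured arrays the highest. Over naive cells the log2 difference was 2.24 ± 0.43 in immunised (adjusted p = 0.00167), 2.54 ± 0.43 in transferred (adjusted p = 0.000779) and 3.56 ± 0.43 in cultured cells (adjusted p = 0.000108). These comparisons share the naive arrays. Transferred minus cultured cells came to −1.02 (adjusted p = 0.0995), and without cultured replicate 2 to −1.41 (adjusted p = 0.035). Immunised minus cultured cells came to −1.32 (adjusted p = 0.0384), a call lost without naive replicate 3, transferred replicate 2 or any immunised replicate, with no filter or with only the 6 arrays compared (adjusted p 0.0518 to 0.114). The other Rbpj probe had means of −1.08 in immunised, 0.27 in transferred, 0.59 in cultured and −3.37 in naive cells, with naive cells again the lowest. Over the 12 arrays Rbpj had a Pearson r of −0.86 and a Spearman rho of −0.90 with Dtx1, with the groups shared by all points. The Hes1 target gene was not well above background on any array, with a highest level of −5.83 on transferred replicate 3.

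Counted by comparison with Dtx1 left out, 4 of 5 genes were higher in immunised than in naive cells (Dtx4, Notch2, Jag1 and Rbpj) and 0 lower. The shares of all genes called in that comparison were 20.6% higher and 27.7% lower. The same 4 genes were higher in transferred than in naive cells and 0 lower, where 21.2% of genes were higher and 26.5% lower. In cultured against naive cells 1 of 5 was higher (Rbpj) and 1 lower (Dtx4), with 19.7% of all genes higher and 20.4% lower. Without cultured replicate 3 the count was 4, and without naive replicate 2 it was 1. In immunised against cultured cells 3 were higher (Dtx4, Notch2 and Jag1) and 1 lower (Rbpj), where 13.7% of genes were higher and 17.8% lower. In transferred against cultured cells 4 were higher (Dtx4, Notch1, Notch2 and Jag1) and 0 lower, where 12.8% were higher and 15.5% lower, and the count was 2 without transferred replicate 3. A gene could pass the filter through the group in which it was high, as Jag1 did, and 3 of the 9 did not pass, so these counts describe the genes measured and not the set.

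Beside the 9 genes, 59 further pathway genes were listed by role, all of them on the array, and 54 passed the filter. In immunised against naive cells 15 of the 54 were higher and 12 lower, against 20.6% higher and 27.7% lower of all genes, with a median log2 difference of −0.25 against −0.19 for all genes. In transferred against naive cells 11 were higher and 18 lower, against 21.2% and 26.5% of all genes (median −0.30 against −0.12). In cultured against naive cells 9 were higher and 15 lower, against 19.7% and 20.4% of all genes (median 0.06 against −0.08). Against cultured cells, 8 were higher and 9 lower in immunised cells (13.7% and 17.8% of all genes), and 8 higher and 8 lower in transferred cells (12.8% and 15.5% of all genes). Between the CNS groups 1 of 54 was called, which is Nrarp, against 1.85% higher and 1.37% lower of all genes.

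Of the 9 receptor cleavage genes, 7 were higher and 0 lower in immunised than in naive cells, where 20.6% of all genes were higher and 27.7% lower. In transferred against naive cells 5 were higher and 0 lower, where 21.2% of all genes were higher and 26.5% lower. Furin, the protease that cuts the Notch precursor on its way to the surface, lay at 4.36 to 4.80 in immunised, 3.50 to 4.45 in transferred, 2.19 to 5.21 in cultured and 0.89 to 1.14 in naive cells, with log2 differences from naive cells of 3.53 in immunised, 2.92 in transferred and 2.98 in cultured cells. Aph1b, a gamma-secretase subunit, was not well above background on any naive array and was at least 30.8-fold higher in immunised, at least 37.5-fold higher in transferred and at least 8.04-fold higher in cultured cells. It was also 2.22 higher in transferred than in cultured cells (adjusted p = 0.0125). Aph1b is among the cleavage genes counted above as higher than in naive cells in both CNS groups. It passed the filter only through groups in which it was high, so the filter set its direction against naive cells. Notch4, the remaining receptor, was 2.70 higher in immunised (adjusted p = 0.000214) and 2.30 higher in transferred than in cultured cells (adjusted p = 0.00068). The macrophage markers given above, as a sum, were also higher in the CNS groups, and their part in these rises was not tested.

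The 5 glycosylation genes, whose products add sugars to Notch receptors, were all lower in transferred than in naive cells, where 26.5% of all genes were lower, and 2 of 5 were lower in immunised cells, where 27.7% were. The summed T cell core level was also lower in transferred arrays, at 268 to 388 against 562 to 649 in naive arrays. In immunised arrays it was 382 to 583, which overlapped the naive arrays. The part of the T cell core level in these differences was not tested. The fringe enzyme Lfng had a log2 difference of −1.19 (adjusted p = 0.0463) and Mfng of −1.16 (adjusted p = 0.00293) in transferred against naive cells. Among the corepressors, 3 of 10 were lower in transferred than in naive cells, a share near the 26.5% of all genes. Tle4, a Groucho family corepressor, had a log2 difference of −2.76 in cultured against naive cells (adjusted p = 0.000325), and it was 2.36 higher in immunised and 2.28 higher in transferred than in cultured cells. Of the ubiquitin ligases of the neuralized family, Neurl1a was 2.46 higher in transferred than in naive cells (adjusted p = 0.00629). Neurl3 was 2.68 higher in immunised than in naive cells (adjusted p = 1.59e-05), with levels of 1.47 to 1.68 in immunised, 0.16 to 0.89 in transferred, −1.05 to −0.14 in cultured and −1.21 to −1.03 in naive cells.

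The listed Notch targets moved in both directions. Il2ra, the alpha chain of the interleukin-2 receptor, had levels of 2.97 to 3.50 in immunised, 2.75 to 3.35 in transferred, 5.13 to 6.25 in cultured and 0.02 to 0.30 in naive cells. It was 5.63 higher in cultured than in naive cells (adjusted p = 5.24e-07). Tcf7, which encodes the transcription factor TCF-1, had log2 differences from naive cells of −2.69 in immunised (adjusted p = 0.00698), −2.40 in transferred (adjusted p = 0.0122) and −2.11 in cultured cells (adjusted p = 0.027). Nrarp, a Notch target that dampens the signal, lies outside the naming rule and was chosen after its values were seen. Its levels were −3.83 to −2.49 in immunised, −6.37 to −4.13 in transferred, −4.86 to −4.83 in cultured and −6.67 to −6.12 in naive cells, with 3 of 3 immunised but 1 of 3 transferred arrays well above background. The log2 difference between immunised and transferred cells was 2.27 ± 0.51 as fitted (adjusted p = 0.04), with 2 of 3 transferred values below background, and it ranged from 0.67 with normexp to 2.93 over the other settings. That call was lost in 14 of 20 other settings, among them leaving out any immunised or naive replicate, cultured replicate 1 or 2, or transferred replicate 2 or 3, with adjusted p-values over all settings of 0.00354 to 0.145.

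**Figure D4:**
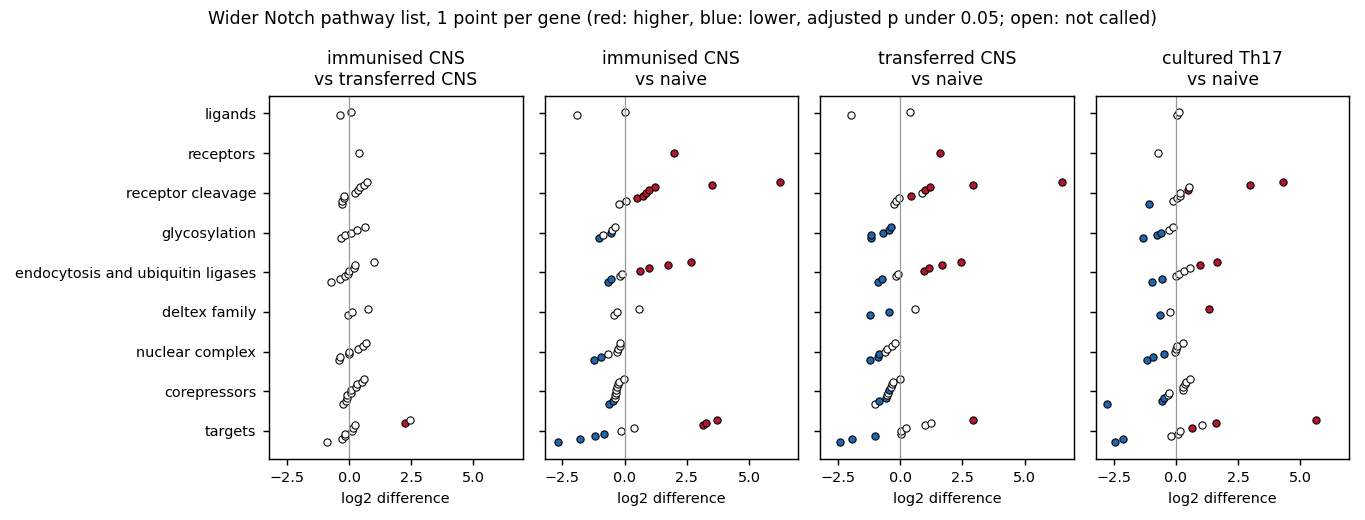
Log2 difference (horizontal axis) of the 54 further pathway genes by role, 1 point per gene, in 4 comparisons, with red points called higher, blue points called lower and open points not called. Receptor cleavage genes have 7 red points in immunised against naive cells, glycosylation genes 5 blue points in transferred against naive cells, and the left panel has 1 red point, Nrarp.

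Among all genes tested, the 5 whose levels followed Dtx1 most closely over the 12 arrays were Pnck, Ccr9, Rasgrp2, Ifi208 and Arl5c, with Pearson r of 0.983, 0.975, 0.971, 0.968 and 0.967 and Spearman rho of 0.923 to 0.965. The 12 arrays share the 4 groups, so these values mostly restate an order of group means. Ccr9, a chemokine receptor, averaged −0.79 in immunised, −2.96 in transferred, −5.41 in cultured and 2.20 in naive cells. Rasgrp2, an exchange factor for Rap GTPases, averaged 1.60 in immunised, 0.50 in transferred, −0.12 in cultured and 3.38 in naive cells. Pnck, a calcium and calmodulin dependent kinase, averaged −3.55 in immunised, −4.51 in transferred, −4.94 in cultured and −2.33 in naive cells. All 5 had the same order of group means as Dtx1.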

How the data were processed

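Total RNA of CD4+ T cells from 4 groups of 3 was hybridised in 1 colour to 12 arrays. The authors deposited spot intensity values that, per the file headers, Agilent's Feature Extraction software (10.7.3.1) wrote under its protocol GE1_107_Sep09, with background subtracted within an array and nothing normalised between arrays. Coordinates are mm9, per the file headers. The deposited series matrix holds intensity values whose scale is linear and whose normalisation is not given in the sources used here. Its medians were 50.4 to 51.2 per array, and it served only as an alternative, on the log2 scale computed from the deposited values.

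Control spots and 120 to 180 outlier spots per array were left out, and 0 spots were saturated. Probes were named through RefSeq accessions where possible, 39405 probes giving 30101 names. Each gene was represented by its brightest probe and had to be well above background on each of the 3 arrays of some group. In all, 18631 genes passed. Log2 signals minus each array's 75th percentile were fitted over all 12 arrays by lmFit and eBayes of limma 3.58.1 (R 4.3.3), with 8 residual and 2.49 prior degrees of freedom. P-values are two-sided, Benjamini-Hochberg adjusted over all genes, and called under 0.05. The fit was tested on simulated data. Files were read with the R package data.table (1.17.8), and plots were drawn with matplotlib 3.10.9 and pandas 2.3.3 under Python 3.11.15 with numpy 2.4.6.

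The 9 genes, the pathway list and the marker lists were chosen with earlier results of these data known. Named pathway genes were, per comparison, up to 4 called genes whose groups did not overlap, by size of change, among those above background on all 6 arrays. The series text gives 3 independent experiments, and animals per sample are not given in the sources used here, so p-values measure the spread between these samples. Having 3 arrays per group limits the precision. Alternatives were another scaling, quantile normalisation, normexp with offset 50, the series matrix, other filters, the mean over probes, a replicate block, only the 6 arrays compared, and leaving out each array. The position of a probe in exons or untranslated regions was not analysed here. Values of some single marker genes are not reported here. A planned test of Dtx1 between the CNS groups is not given, since the values that chose the gene enter it.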

Additional observations from a re-analysis of the deposited data

How the results depend on the processing

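Over 30 tested differences of the 9 genes and 21 settings, 576 of 624 fits kept direction and call, 36 lost the call, 4 gained it and 8 changed sign, none of these 8 being called. The 8 were Dtx4 between the CNS groups with normexp (0.0086) and without transferred replicate 3 (0.17) or immunised replicate 1 (0.041), where leaving out an array gave −0.20 to 0.17, Notch2 in cultured against naive cells with the mean over probes (−0.14) and without cultured replicate 2 (−0.087, range −0.087 to 0.53), Notch1 in immunised against naive cells without naive replicate 3 (0.16) or immunised replicate 2 (0.10, range −0.42 to 0.16), and Notch2 between the CNS groups without transferred replicate 1 (−0.017, range −0.017 to 0.21). The number of the 9 genes called in transferred against cultured cells was 2 with the mean over probes and 2 with only the 6 arrays compared, against 4, and 2 to 5 when an array was left out. In cultured against naive cells it was 1 with only those 6 arrays and 1 to 4 when an array was left out, and in immunised against cultured cells 2 with only those 6 arrays. Of all genes, 600 were called between the CNS groups, 371 with no filter, 367 with only probes above background on all 12 arrays, and 193 to 1294 when an array was left out, the highest without cultured replicate 3. In transferred against cultured cells 5267 genes were called, and 3313 with only the 6 arrays compared. The cause of these changes was not tested. Scaling to the median shifted all differences of cultured against naive cells by 0.11 and of transferred against cultured cells by −0.12, and the last shift left Notch2 there uncalled (0.85, adjusted p = 0.0608). Same-numbered arrays, which shared a slide, had deviations correlated at −0.20 to 0.20, over 0.1 in 4 of 18 pairs, so the numbers were not shown to pair samples. With the replicate number as a block, genes called were 557 between the CNS groups, 8869 and 8667 in immunised and transferred against naive cells, 7169 in cultured against naive cells, and 5603 and 5069 in immunised and transferred against cultured cells, and no call of the 9 genes changed. Signal over background limits Notch3, Dll1, Hes1 and the low groups of Jag1.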

Other observations

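Hes5 and Hey1, target genes named here after their values were seen, are given without a test, since each was below background on some arrays. Hes5 had levels of −5.15 to −4.76 in immunised, −5.38 to −4.88 in transferred, −6.25 to −5.18 in cultured and −4.11 to −2.09 in naive cells, with naive arrays the highest, and in each of the other groups 2 of 3 arrays passed the background mark. Hey1 had levels of −1.90 to 0.19 in immunised, −4.41 to −2.73 in transferred, −5.55 to −0.71 in cultured and −5.57 to −3.41 in naive cells, where 2 of 3 arrays were well above background. The coactivator gene Maml2, likewise named after its values were seen, had a log2 difference from naive cells of −1.22 both in immunised (adjusted p = 0.00101) and in transferred cells (adjusted p = 0.000961).

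On cultured replicate 3, Dtx4 and Jag1 were the lowest of the cultured arrays, at −4.31 and −7.70, and Rbpj and Notch3 the highest, at 4.85 and −1.44. Its Th17 marker sum was 19.1, against 84.4 and 181 on the other cultured arrays.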
